A study of Mus musculus with 24 samples.

Results

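Molecular chaperones help other proteins fold, stay soluble and assemble, and the transcripts of 4 chaperone families were followed here in single ovulated mouse oocytes. The genes were chosen by symbol alone: the heat shock proteins (HSP, 29 genes), the J-domain proteins (DNAJ, 45 genes), the CCT chaperonin with Tcp1 (10 genes) and prefoldin with Vbp1 (5 genes). Together these were 89 of the 25965 entries of the expression table. All 89 overlapped the gene of the same identifier in GENCODE M21 on GRCm38, and gene coordinates below are the table's own on that build.

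The study asked how an excess of anti-Müllerian hormone (AMH), a hormone that granulosa cells make and that restrains the growth of follicles, bears on the transcripts of the oocyte. The transgenic group was Thy1.2-AMHTg/0, with AMH under a Thy1.2 promoter, and the other group was wild type. The females were adults, with no age given in the sources used here, and ovulated naturally. In both groups the cumulus cells and the zona pellucida were removed before each oocyte was lysed alone and its cDNA amplified with the SMART-Seq v4 kit. From 4 females of each genotype, 2 or 3 oocytes apiece were measured, in all 10 transgenic and 11 wild-type oocytes, with 1 transgenic and 1 wild-type female in every one of 4 sequencing lanes. A library of the control RNA of the kit, whose tissue the labels do not name, was used as an outside reference. The female was the replicate, so group means are given as mean ± SD over n = 4 females.

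The 21 oocyte libraries held 20400000 to 33300000 reads, of which 91.1% to 94.8% lay in listed genes. The median share was 93.3% for the transgenic and 92.2% for the wild-type oocytes. Levels are in RPM, a gene's reads divided by the library total and multiplied by 1000000, so every value is a share of the oocyte's own RNA. Amplified reads carry no molecular identifiers, so read floors cover counting error only. In a library, 3 reads stood for 0.0900 to 0.147 RPM. Amh had 0 reads in the 10 transgenic oocytes and 1 read in the 11 wild-type oocytes, so it could not check the genotype labels. All 12 egg markers (such as Zp3, Gdf9 and Bcl2l10) had a median of at least 1 RPM, and together they summed to 47101 to 69797 RPM per oocyte. The 15 cumulus and granulosa markers all had medians under 1 RPM, with 3 of them at 0 in every oocyte and sums of 0 to 30.7 RPM. Of 10 blood and immune markers 1 (Cd68) had a median of at least 1 RPM. Of 7 oviduct markers 2 did (Epcam and Sec14l3), while Foxj1 and Pax8 had no read. The summed oviduct list was 25.4 to 41.8 RPM in the transgenic females and 13.0 to 20.8 in the wild-type females, and Sec14l3 alone stood at 27.0 ± 7.59 against 13.4 ± 3.86 RPM. The part of that difference in the results below was not tested.

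HSP70 chaperones bind short hydrophobic stretches of unfolded proteins in a cycle that J-domain proteins start and nucleotide exchange factors reset. HSP90 acts later, on partly folded kinases and receptors, with its own co-chaperones. Prefoldin holds newly made actin and tubulin and hands them to the CCT ring, in whose chamber they fold, and the spindle and cortex of the egg are built from these proteins. An ovulated oocyte hardly transcribes, so its chaperone mRNAs are a store laid down during growth.

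Of the 89 genes, 23 averaged 100 RPM or more in the oocytes, 28 lay between 10 and 100, 14 between 1 and 10, and 24 below 1. Genes that averaged 1 RPM or more were tested, which left 65 chaperones (19 HSP, 34 DNAJ, 7 CCT and 5 prefoldin), among 10987 genes of the whole table. Hspa12b, Hspb2, Hspb3, Hspb7, Hspb9, Dnajb8, Dnajb13, Dnajc12 and Cct8l1 had no read in any of the 21 oocytes. That count of 0 allows a level of up to 0.00600 RPM over the pooled oocytes. Levels of different genes were compared per kb of exon. The median of the tested genes was 24.7 RPM per kb for HSP, 13.2 for DNAJ, 39.9 for CCT and 74.0 for prefoldin, against 5.22 for all tested genes. In the median oocyte the summed transcripts were 3653 RPM for HSP, 5089 for DNAJ, 917 for CCT and 1891 for prefoldin, and the 4 families together took 1.14% of the reads.

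**Figure D1:**
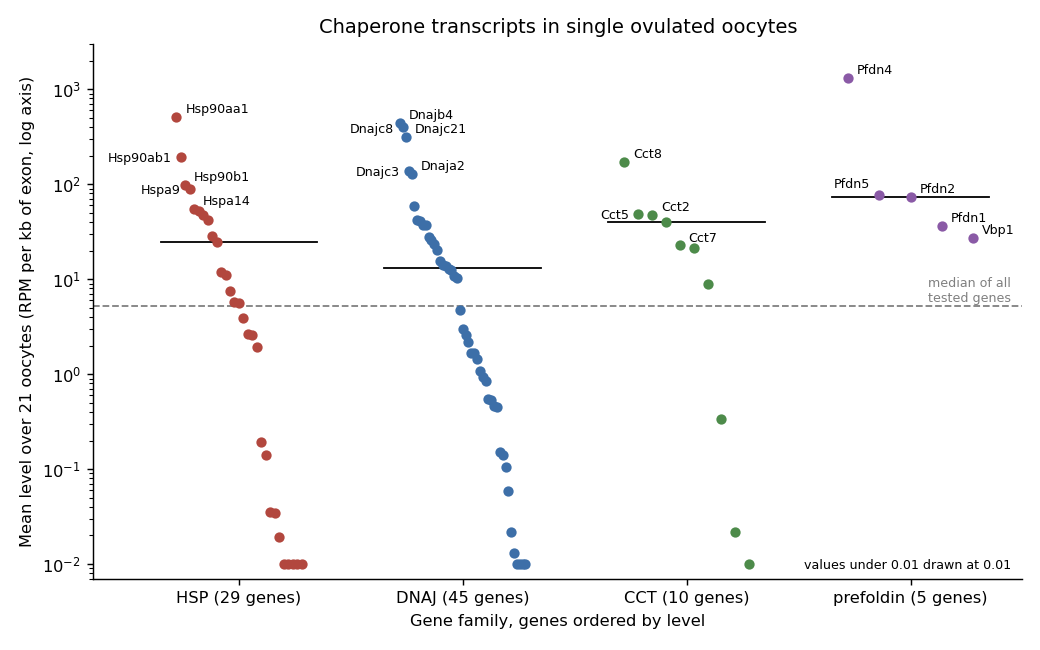
Mean level of each of the 89 genes over the 21 oocytes, in RPM per kb of exon on a log axis. Each dot is 1 gene, black lines are the medians of the tested genes of a family and the dashed line is the median of all tested genes at 5.22. Pfdn4 stood highest at 1329, while HSP, DNAJ and CCT genes reached down to 0.

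Among HSP90 genes, Hsp90aa1 (chr12:110690605-110702728), the stress-inducible cytosolic form in somatic cells, was the most abundant HSP in 21 of 21 oocytes per kb. It ran from 893 to 2669.6 RPM in the transgenic oocytes (median 1646) and from 1374 to 2215 RPM in the wild-type oocytes (median 1831). Its constitutive paralogue Hsp90ab1 ran from 312 to 605 RPM (median 477) and from 379 to 648 RPM (median 491). The groups overlapped for both genes, and the lowest transgenic value of each came from oocyte C of lane 1. Per kb, Hsp90aa1 exceeded Hsp90ab1 1.86- to 4.16-fold in the 21 oocytes (median 2.53), whereas the ratio in the control RNA was 0.134. Hsp90b1, the HSP90 of the endoplasmic reticulum (ER), had a transgenic median of 287 RPM and a wild-type median of 264 RPM. Of the Hsp90aa1 transcript 68.7% matched predicted genes elsewhere at 95% identity or more, so its reads could in part be shared.

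The HSP70 family was led per kb by Hspa9, the mitochondrial member, at 90.2 RPM per kb, followed by Hspa14 at 55.2 and by Hspa5 (BiP, the HSP70 of the ER) at 47.6. Hspa14 works at the ribosome together with the J-domain protein Dnajc2, which stood at 36.9 RPM per kb. The constitutive cytosolic Hspa8 was only 11.9 RPM per kb, and its median of 29.3 RPM compared with 350 RPM in the control RNA. Of the Hspa8 transcript 84.5% matched other genes. The heat-inducible pair Hspa1a and Hspa1b was close to silent. Hspa1a had reads in 7 of 21 oocytes and reached at most 0.272 RPM, and Hspa1b had reads in 12 and reached 2.17 RPM. These near-identical copies (75.7% and 78.5% of their transcripts matched elsewhere) cannot be told apart with certainty. The control RNA held 6.22 and 5.81 RPM of them.

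Hspa5 had 137 to 283 RPM in the transgenic oocytes (median 206) and 99.3 to 338 RPM in the wild-type oocytes (median 139). The HSP110 member Hspa4l, a nucleotide exchange factor, had 21.1 to 36.2 RPM (median 28.6) and 14.2 to 27.97 RPM (median 22.2). The single oocytes of the genotypes overlapped for both. The wild-type values of Hspa5 were low in 3 females and high in that of lane 4, whose mean was 271 RPM against 114 to 142 RPM in the other 3. Hspa2, the HSP70 of male germ cells, had a median of 4.41 RPM over all oocytes.

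The mitochondrial chaperonin genes Hspd1 (HSP60) and Hspe1 (its lid, HSP10) lie head to head on chromosome 1. Hspe1 ran from 21.2 to 43.3 RPM in the transgenic oocytes (median 38.9) and from 35.1 to 58.3 RPM in the wild-type oocytes (median 47.3). Hspd1 had a median of 70.2 RPM over all oocytes, with 71.1 ± 7.25 RPM in the transgenic and 68.1 ± 4.47 RPM in the wild-type females. Of the 8 small HSP genes 3 passed the level of 1 RPM: Hspb11 (median 15.1 RPM), which belongs to the intraflagellar transport complex, Hspb6 (6.96 RPM) and Hspb1 (6.31 RPM). Hspb8, a partner of BAG3 in autophagy, had reads in 2 of 21 oocytes against 24.5 RPM in the control RNA. A pair of HSP-named genes encode partners rather than chaperones. Hspbap1 had a median of 71.5 RPM (4.54 RPM in the control RNA), while Hspbp1, an exchange factor of HSP70, had a median of 0 against 108 RPM in the control RNA.

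Promoter windows from RefSeq (GRCm38.p6, 250 bases before to 50 after the start) were found for 73 of the 89 genes. The heat shock element, searched as 3 alternating triplets GAA, TTC and GAA with any pair of bases between neighbours, on either strand, occurred in the windows of 4 of them (Hspe1, Hspd1, Hsph1 and Dnajb6), and in 0.662% of 27025 genes. The ER stress element, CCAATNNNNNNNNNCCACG on either strand, occurred in 3 (Hspa5, Hsp90b1 and Dnajc3) and in 0.137% of the genes. The stretches below, upstream of the RefSeq starts, are shown because the first lies in the windows of both Hspd1 and Hspe1 and the others belong to chaperones of the ER. Their coordinates come from the RefSeq windows. In GENCODE M21 the first lies in an exon of the neighbour Hspd1 and the second in an exon of Hspa5 itself, so these are shown with 5 bases on each side. Capitals mark the element, with overlapping matches joined.
Hspe1 (chr1:55088054-55088081, plus strand): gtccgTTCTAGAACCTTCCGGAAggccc
Hspa5 (chr2:34772020-34772048, plus strand): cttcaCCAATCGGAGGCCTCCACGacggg
Dnajc3 (chr14:118937797-118937875, plus strand): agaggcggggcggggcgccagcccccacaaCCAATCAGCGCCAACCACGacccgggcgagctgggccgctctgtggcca
Hsp90b1 (chr10:86705510-86705686, minus strand): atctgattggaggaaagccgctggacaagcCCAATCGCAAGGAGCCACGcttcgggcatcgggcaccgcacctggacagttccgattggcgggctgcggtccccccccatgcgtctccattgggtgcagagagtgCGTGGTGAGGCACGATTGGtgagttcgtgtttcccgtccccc
A match is a description of the letters and not a site of binding. The search took exact letters only, so a window without a match may still hold a looser form of the element. Hspa1a and Hspa1b had no match, like most of the 73 genes, and Hspd1 and Hspe1 share the first stretch.

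The J-domain family had the largest summed level of the 4 families, and 4 members made up most of its level. Dnajb4 (chr3:152178511-152210279), a cytosolic HSP70 partner, ran from 884 to 1585 RPM in the transgenic oocytes (median 1283) and from 1075 to 1608 RPM in the wild-type oocytes (median 1324). Dnajc21, which acts in the maturation of the large ribosomal subunit, ran from 374 to 875 RPM (median 643) and from 431 to 1030.5 RPM (median 692). Dnajc3, a BiP co-chaperone of the ER that restrains the kinase PERK, ran from 665 to 971 RPM (median 748) and from 542 to 852 RPM (median 637). Dnajc8, a protein of the spliceosome, ran from 350 to 821 RPM (median 489) and from 490 to 690.5 RPM (median 621). Oocytes of the genotypes overlapped for all 4 genes. Per kb, Dnajb4 was the highest DNAJ in 12 oocytes, Dnajc8 in 6 and Dnajc21 in 3. Dnajb4 exceeded Dnajb1, the best known heat-inducible J-domain protein, 5.79- to 35.4-fold per kb (median 12.7), whereas the ratio in the control RNA was 0.858.

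Of the 4 DNAJA genes, Dnaja2 was highest at 128 RPM per kb, then Dnaja1 at 25.6, Dnaja4 at 23.2 and the mitochondrial Dnaja3 at 14.3. Dnaja1 ran from 78.7 to 231 RPM in the transgenic oocytes (median 124) and from 126 to 205 RPM in the wild-type oocytes (median 170). Of 13 DNAJB genes 8 passed the level of 1 RPM. Dnajb11, which delivers unfolded proteins to BiP in the ER, ran from 58.5 to 114 RPM (median 74.98) and from 35.005 to 80.8 RPM (median 57.3), with an overlap of single oocytes between the genotypes. Dnajb1 itself had medians of 113 RPM in both groups, with single oocytes from 45.2 to 255 RPM. Of 28 DNAJC genes 22 passed. The histone H3-H4 chaperone Dnajc9 ran from 23.1 to 85.4 RPM (median 61.4) and from 52.5 to 129.97 RPM (median 76.1). Dnajc7, which links HSP70 and HSP90, had medians of 116 and 146 RPM. The 11 DNAJ genes below 1 RPM included Dnajc6 (auxilin, which strips clathrin coats), Dnajc27 and Dnajb5, whose medians were 0, 0.538 and 0 RPM against 153, 196 and 55.7 RPM in the control RNA.

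The CCT ring is built of 8 different subunits in equal number, yet their transcripts differed widely per kb. Cct8 (chr16:87483326-87495873) was the highest of the 8 in 21 of 21 oocytes and took 33.0% to 54.0% of the summed level per kb (median 48.7%), against 16.3% in the control RNA. Its level was 259 to 580.5 RPM in the transgenic oocytes (median 447) and 298 to 521 RPM in the wild-type oocytes (median 389). Cct6a (chr5:129787439-129845820) was the lowest in 21 of 21 oocytes, with a median of 0.920 RPM against 199 RPM in the control RNA, and a share of 0.0992% against 12.3%. It had reads in 7 of 10 transgenic and 11 of 11 wild-type oocytes. Its paralogue Cct6b, a testis form, had reads in 2 of 21 oocytes and did not exceed 0.473 RPM. Between these ends stood Cct5 (48.9 RPM per kb), Cct2 (47.3), Tcp1 (39.9), Cct7 (22.6), Cct3 (21.2) and Cct4 (8.86). The ranges of Cct5 and Cct2 coincided to a large extent, from 39.4 to 163 RPM and from 36.0 to 183 RPM.

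In prefoldin, 1 subunit outweighed all others. Pfdn4 (chr2:170496428-170519123) had 80.0% to 90.6% of the summed level per kb of the 5 prefoldin genes in the oocytes (median 86.2%). In the control RNA its share was 9.75%. At 1329 RPM per kb it ranked 32 of 25035 genes, ahead of every HSP, DNAJ and CCT gene. It exceeded Pfdn5 11.3- to 30.5-fold per kb (median 18.0), whereas the ratio in the control RNA was 0.669. Pfdn4 overlaps Cyp24a1 and a predicted gene on the opposite strand, and the sources used here do not state that strand was kept. Of the 5 subunits chosen by name, the lowest was Vbp1 in 13 oocytes and Pfdn1 in 8. The gene of the remaining subunit, Pfdn6, is listed under its older symbol H2-Ke2 and so fell outside the choice by name, with 1.25 to 6.03 RPM (median 3.58) against 39.4 RPM in the control RNA.

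**Figure D2:**
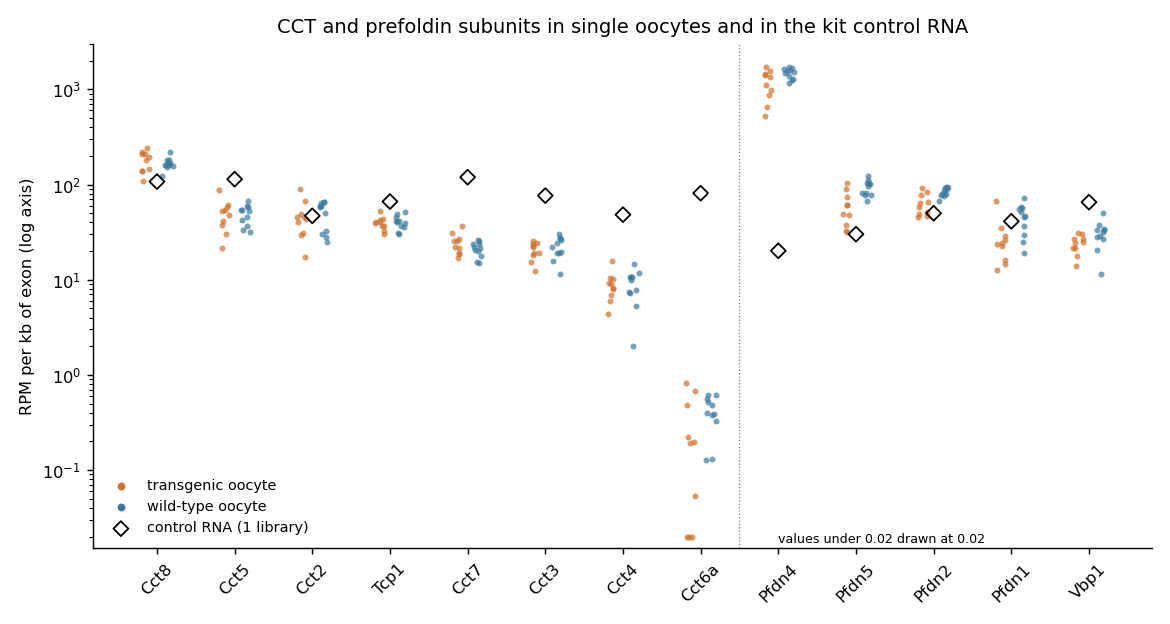
Levels of the CCT and prefoldin subunits in RPM per kb of exon (log axis). Dots are single oocytes by genotype and diamonds are the 1 control RNA library. Cct6a dots lie far below its diamond, with an oocyte mean of 0.340 against 81.1 RPM per kb. Pfdn4 dots lie far above its diamond, with an oocyte mean of 1329 against 20.1 RPM per kb.

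Against the control RNA, 76 of the 89 genes had at least 5 RPM in the oocyte median or in the control. At least 4-fold higher in oocytes were 8 of the 76, where 17.8% of all such genes were, and at least 4-fold lower were 28, where 49.4% were. With 1 control library these ratios have no replicate check and no test. The 8 higher genes were Pfdn4 (69.7-fold), Dnajc21 (26.5-fold), Dnajb4 (20.4-fold), Hspbap1 (15.8-fold), Dnajc3 (10.4-fold), Hsp90aa1 (7.52-fold), Dnajc8 (4.75-fold) and Dnajc5b. For Dnajc5b, a relative of the vesicle protein Dnajc5, the oocyte median was 14.8 RPM and the control held 1 read. Dnajc5 itself had a median of 16.3 RPM against 500 RPM in the control. The lower genes were 10 HSP, 15 DNAJ and 3 CCT (Cct4, Cct6a and Cct7), and none of the 5 prefoldin genes chosen by name. Pfdn6 (H2-Ke2), outside that choice, had a median of 3.58 RPM against 39.4 RPM in the control.

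No chaperone gene passed the test between the genotypes. With limma on the female means, 0 of the 65 had an adjusted p below 0.05, as had 0 of the 10987 genes (0%), and the smallest adjusted p was 0.724 in both. An unadjusted p below 0.05 was found for 9 of the 65, where 6.81% of all genes had one. Of these 7 were lower in the transgenic oocytes, where 4.03% of all genes were, and 2 were higher, where 2.78% were. The female means of the genotypes did not overlap for 5 of the 65, where 4.03% of all genes did not overlap. Lower without overlap were 3 of these (Hspe1, Pfdn2 and Pfdn5), where 2.39% of all genes were, and Hspa4l and Dnajb11 were higher. The values below therefore describe these animals and are not called differences.

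The median log2 difference, transgenic minus wild type, was 0.13 for HSP, -0.15 for DNAJ, -0.05 for CCT and -0.45 for prefoldin, beside -0.01 for all tested genes, of which the middle 50% lay between -0.21 and 0.16. Whether the families differed from each other was not tested. By lane, the HSP median was 0.19, 0.07, -0.01 and 0.14, that of DNAJ -0.36, -0.22, -0.08 and 0.18, and that of CCT -0.14, 0.10, -0.04 and -0.09. In lane 4 the DNAJ median was thus above 0. With single females or oocytes left out the HSP median was 0.06 to 0.19 and the DNAJ median -0.21 to -0.05. Higher in the transgenic mean were 12 of 19 HSP, 12 of 34 DNAJ, 3 of 7 CCT and 0 of 5 prefoldin genes, where 47.8% of all tested genes were. Prefoldin transcripts summed to 1572 ± 315 RPM in the transgenic and 2063 ± 175 RPM in the wild-type females. That of HSP was 3510 ± 559 against 3541 ± 298 RPM, that of DNAJ 4894 ± 307 against 5048 ± 402 RPM, and that of CCT 830 ± 144 against 821 ± 97.6 RPM. These 3 sums differed by less than the spread between females.

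**Figure D3:**
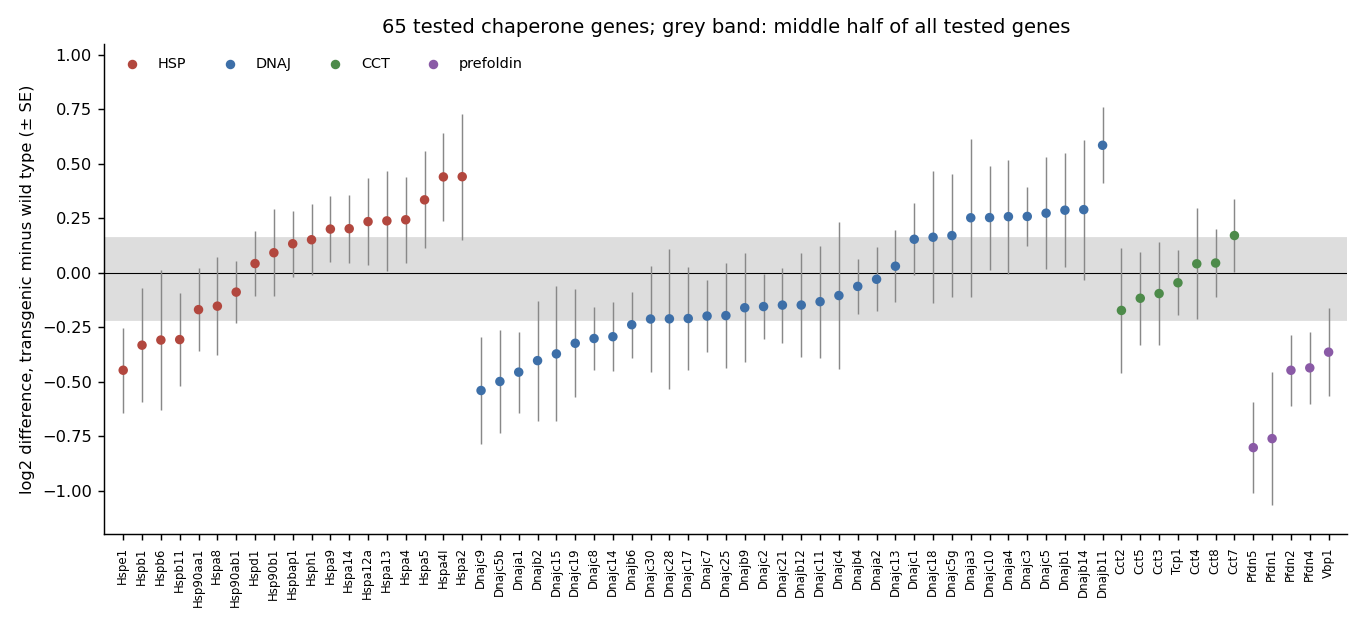
Log2 difference (transgenic minus wild type) of each of the 65 tested genes, with bars of 1 SE over 4 against 4 females, ordered within families. The grey band holds the middle 50% of all tested genes. All 5 prefoldin dots lie below the band, and Dnajb11 at 0.59 is the highest dot.

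Prefoldin transcripts were lower in the transgenic mean for 5 of 5 subunits chosen by name, where 52.2% of all tested genes were. Of all tested genes in their length range, 1000 to 2000 exonic bases, 72.0% were lower. An unadjusted limma p below 0.05 was found for 4 of the 5 subunits, where 6.81% of all tested genes had one. Pfdn6 (H2-Ke2), outside that choice, stood at 3.04 ± 1.09 RPM in the transgenic and 3.51 ± 0.695 RPM in the wild-type females. Pfdn5 (chr15:102326116-102331873) ran from 43.9 to 142 RPM in the transgenic oocytes (median 76.3) and from 92.8 to 171 RPM in the wild-type oocytes (median 134). The transgenic female means were 44.5, 84.7, 106 and 76.3 RPM in lanes 1 to 4 and the wild-type means 135, 122, 133 and 125 RPM. Every transgenic female lay below every wild-type female. The log2 difference was -0.80 ± 0.21 (SE), with an unadjusted p of 0.00209 and a limma adjusted p of 0.724. Of the Pfdn5 transcript 59.3% matched other genes, and the gene overlaps Myg1 on the same strand, so its reads could in part be shared.

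Pfdn2 showed the same separation of female means, with 80.1 to 130.2 RPM in the transgenic and 138 to 152 RPM in the wild-type females, and a log2 difference of -0.45 ± 0.16. Single oocytes ran from 79.9 to 159 RPM (median 106) and from 117 to 163 RPM (median 141), so the oocytes themselves overlapped. Of the Pfdn2 transcript 30.8% matched the neighbour Klhdc9. Pfdn4 was 593 to 1976 RPM in the transgenic oocytes (median 1404) and 1331 to 1979 RPM in the wild-type oocytes (median 1735). The lowest oocytes of the groups were far apart and the highest were alike. Its female means were 1313 ± 277 and 1685 ± 158 RPM, with a log2 difference of -0.44 ± 0.16. Pfdn1 ran from 14.0 to 73.6 RPM (median 26.7) and from 21.3 to 79.6 RPM (median 51.2), and its log2 difference was -0.76 ± 0.30. The wild-type female of lane 4, at 24.3 RPM, stood among the transgenic females. Vbp1 ran from 25.1 to 55.3 RPM (median 44.0) and from 20.9 to 91.0 RPM (median 57.4), at -0.36 ± 0.20. Its wild-type female of lane 4 stood at 75.9 RPM against 43.9 to 62.6 RPM in the other 3, and without it the difference was -0.21.

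Within lanes the family median was lower in the transgenic female as well, but not every subunit was. Pfdn1 was higher in the transgenic female of lane 4 (27.9 against 24.3 RPM). The mean RPM of Pfdn4 was higher in that of lane 2 (1527 against 1498.5 RPM). The prefoldin median by lane was -0.98, -0.43, -0.44 and -0.27 in lanes 1 to 4, beside -0.02, -0.09, -0.01 and 0.05 for all tested genes. Lane 1 weighed most. Without its transgenic female the prefoldin median was -0.31.

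**Figure D4:**
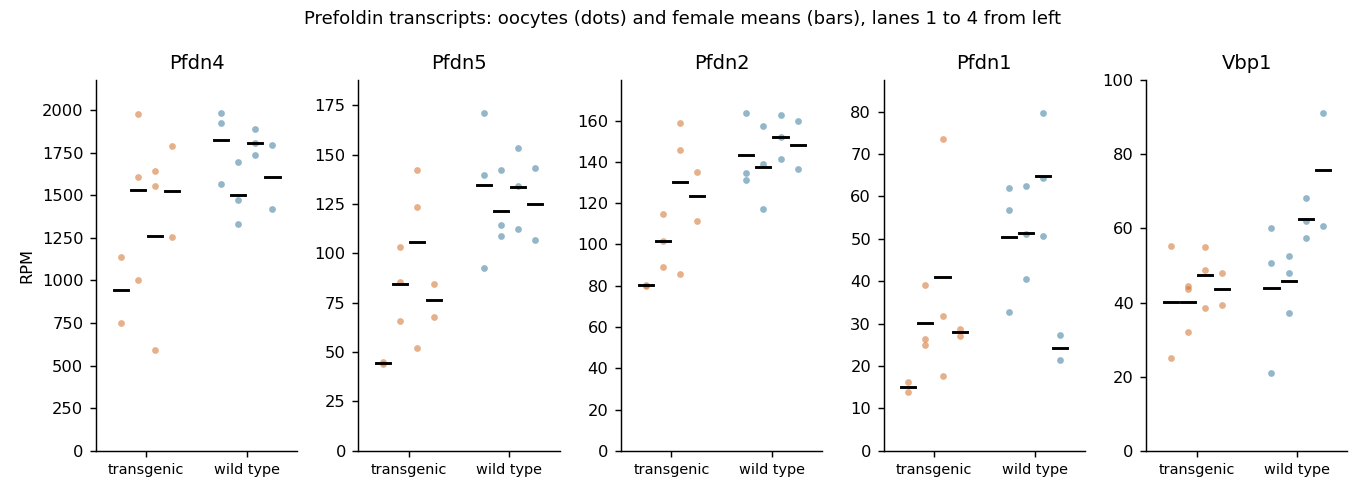
RPM of the 5 prefoldin transcripts, with dots for single oocytes and bars for female means, the 4 females of a genotype placed by lane from left to right. For Pfdn5 and Pfdn2 the 4 transgenic bars lie below the 4 wild-type bars, and the transgenic female of lane 1 has the lowest bar for Pfdn4, Pfdn5, Pfdn2 and Pfdn1.

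Gene length moved with this result. Among all tested genes, those with under 1000 exonic bases had a median log2 difference of -0.28 and 81.8% of 669 were lower in the transgenic mean. Those of 1000 to 2000 bases had a median of -0.16, with 72.0% of 2039 lower. The medians were 0.01 from 2000 to 4000 bases and 0.05 from 4000 bases. All 5 prefoldin genes lie between 1109 and 1806 bases, and of the 16 tested chaperones of 1000 to 2000 bases 14 were lower. With the trend against exonic length removed from each female, an alternative added after the data were seen, the prefoldin median was -0.35, as for Pfdn2. Pfdn5 was then at -0.63, Pfdn1 at -0.54, Vbp1 at -0.27 and Pfdn4 at -0.22, and their adjusted p was 0.857 to 0.864. Hspe1, with 774 bases, was at -0.45 before and -0.20 after. Why short genes were lower was not tested.

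**Figure D5:**
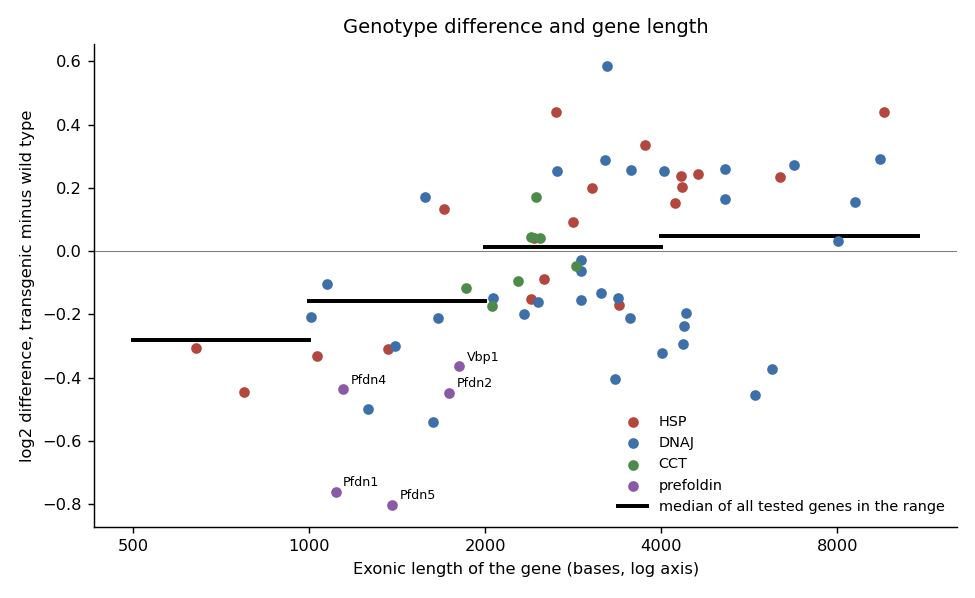
Log2 difference (transgenic minus wild type) of the 65 tested chaperone genes against exonic length in bases (log axis), with the median of all tested genes in each length range as a black line. The line runs from -0.28 below 1000 bases to 0.05 from 4000 bases, and the 5 prefoldin dots lie below the line of their range at -0.16.

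In the HSP family, 9 of 10 tested HSP70 and HSP110 genes had a higher transgenic mean, where 47.8% of all tested genes had one. Their median log2 difference was 0.24. The 10 genes have 2394 (Hspa8) to 9618 (Hspa4l) exonic bases. Lower in the transgenic mean were 48.2% of all tested genes of 2000 to 4000 bases and 41.6% of those from 4000. Hspa4l was 28.5 ± 4.77 RPM in the transgenic and 20.8 ± 3.72 RPM in the wild-type females, a log2 difference of 0.44 ± 0.20, and the female means did not overlap. Hspa8 was the exception at -0.15 ± 0.22. Hspa5 stood at 0.34 ± 0.22, and at 0.19 without the wild-type animal of lane 1 or 0.59 without that of lane 4. Hspa2 stood at 0.44 ± 0.29, and at 0.25 without the transgenic animal of lane 1. Hspe1 was at -0.45 ± 0.19 (limma adjusted p 0.724), with 24.6 to 42.2 RPM in the transgenic females and 42.9 to 56.6 RPM in the wild-type females, and at -0.29 without the transgenic animal of lane 1. Of its transcript 81.0% matched other genes. Its partner Hspd1, of whose transcript 71.1% matched other genes, was at 0.04 ± 0.15. The difference between Hspe1 and Hspd1 was not tested. All 3 tested small HSP genes had a lower transgenic mean, from -0.31 to -0.33. They have 640 (Hspb11), 1031 (Hspb1) and 1363 (Hspb6) exonic bases, lengths at which 72.0% to 81.8% of all tested genes were lower. Of the Hspb1 transcript 72.6% matched other genes. HSP90 genes stayed within their errors, with Hsp90aa1 at -0.17 ± 0.19, Hsp90ab1 at -0.09 ± 0.14 and Hsp90b1 at 0.09 ± 0.20. Without the transgenic female of lane 1 the first 2 were 0.03 and 0.02.

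Among J-domain genes, Dnajb11 had the widest difference upward. Its female means were 95.05, 65.6, 76.1 and 92.1 RPM in the transgenic females of lanes 1 to 4 and 48.8, 61.7, 46.9 and 62.0 RPM in the wild-type females. The transgenic female was higher in 4 of 4 lanes and the groups did not overlap, at a log2 difference of 0.59 ± 0.17, an unadjusted p of 0.00525 and a limma adjusted p of 0.724. Its ER partners leaned the same way with larger relative errors, Dnajc3 at 0.26 ± 0.13 (higher in 4 of 4 lanes) and Dnajc10, a disulphide reductase, at 0.25 ± 0.24. Dnajb9, another ER member, stood at -0.16 ± 0.25. In 7 of the 34 tested DNAJ genes (20.6%) the difference had 1 direction in all 4 lanes, where 18.3% of all tested genes did. Lower in the transgenic mean in 4 of 4 lanes were Dnaja1 (124 ± 33.97 against 165 ± 17.1 RPM, log2 -0.46 ± 0.19), Dnajc9 (55.9 ± 19.9 against 79.6 ± 12.8 RPM, -0.54 ± 0.24), Dnajc8 (-0.30 ± 0.14), Dnajb6 (-0.24 ± 0.15) and Dnajc5b (-0.50 ± 0.24). Without the transgenic animal of lane 1 Dnaja1 was at -0.29 and Dnajc9 at -0.32. Over all alternatives tried, the smallest difference was -0.14 for Dnajc8 and -0.31 for Dnajc5b. Dnajc9 (1631 exonic bases), Dnajc8 (1401) and Dnajc5b (1259) lie in the length range where 72.0% of all tested genes were lower. Dnajb4, the most abundant of the family, differed by -0.06 ± 0.13.

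No CCT gene had an unadjusted p below 0.05. The 7 tested subunits ran from -0.17 ± 0.28 (Cct2) to 0.17 ± 0.17 (Cct7), with Cct8 at 0.05 ± 0.15 and Tcp1 at -0.05 ± 0.15. Each difference was within about 1 SE of 0. The direction of Cct2, Cct3, Cct4, Cct5, Cct8 and Tcp1 turned when single females were left out.

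Single females also differed from each other beyond the spread of their own oocytes. By limma's moderated F test over the 8 females, 677 genes (6.16%) had an adjusted p below 0.05, and 5 of the 65 chaperones did: Dnaja3 (0.0141), Cct3 (0.0270), Pfdn1 (0.0306), Pfdn5 (0.0373) and Dnaja1 (0.0474). That share is near the background. The test had female as its only factor, so genotype and lane enter these calls and cannot be told apart from the animal here. Dnaja3, a mitochondrial J-domain protein, was lowest in the lane 4 females, at 23.7 RPM in the transgenic and 12.8 RPM in the wild-type female, against 33.5 to 48.2 RPM in the other 6. Cct3 was low in the transgenic female of lane 1 (31.4 RPM) and the wild-type female of lane 4 (31.2 RPM), against 42.8 to 64.3 RPM elsewhere. These calls hung on few animals. With the wild-type animal of lane 4 left out the counts were 12 genes and 0 chaperones, and with the transgenic animal of lane 3 left out they were 1146 and 12. Leaving out the wild-type animal of lane 3 gave 366 genes and 1 chaperone. The chaperones were 1 when the lane 1 transgenic animal was dropped and 8 when the lane 2 wild-type animal was, and the genes were 437 when the lane 2 transgenic animal was.

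Sister oocytes, those of the same female, were compared as well. The SD between sister oocytes on the log2 scale had a median of 0.29 over the tested HSP genes, 0.31 over CCT, 0.37 over DNAJ and 0.43 over prefoldin, beside 0.41 for all tested genes. These medians were not matched for level. The median level of the tested genes was 40.8 RPM for HSP, 90.6 for CCT, 58.6 for DNAJ and 106 for prefoldin, against 16.0 for all. The smallest SDs were those of Dnajc7 (0.12), Hspa9 (0.16), Dnajc3 (0.17), Hspa14 (0.17) and Cct3 (0.17). Pfdn4, despite its level, had an SD of 0.43. The sister oocytes of the transgenic female of lane 3 held 593, 1552 and 1644 RPM of it.

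The genes that work with these chaperones were taken from lists of known partners. None passed the test between the genotypes in any of 6 lists. Of 11 tested cofactors of CCT and tubulin folding, 8 were lower in the transgenic mean, where 52.2% of all tested genes were, and their median log2 difference was -0.32. Of the 11, 7 had under 2000 exonic bases, the lengths at which 72.0% to 81.8% of all tested genes were lower, Tbca (612 bases), Tbcb (1416) and Pdrg1 (1273) among them. Tbcb (21.4 ± 6.92 against 32.1 ± 4.47 RPM, -0.63 ± 0.23) and Tbca (28.7 ± 4.47 against 40.6 ± 7.78 RPM, -0.50 ± 0.19) bind the tubulin subunits after their release from CCT. Pdrg1, a prefoldin-like protein, stood at -0.52 ± 0.21. The female means did not overlap for 3 of the 11, where 4.03% of all tested genes did not. These were Tbca and Pdrg1, both lower, and 1 cofactor that was higher. Of 16 tested ER folding partners 11 were higher, where 47.8% of all tested genes were, and the list median was 0.04. Among them P4hb, a disulphide isomerase, was at 0.53 ± 0.22 and the ER stress sensor Atf6 at 0.46 ± 0.20, while the stress transcription factor Atf4 was at -0.43 ± 0.17. The transcript of the ER stress sensor Ern1 (IRE1) had a median of 448 RPM against 5.63 RPM in the control RNA, and that of its splicing target Xbp1 a median of 0 against 164 RPM.

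Of 18 tested HSP90 co-chaperones 7 were higher, where 47.8% of all tested genes were, and the list median was -0.03. Ahsa1, which drives the ATPase of HSP90, led that list per kb at 348 RPM per kb, and Fnip2 had the widest difference (3.70 ± 2.10 against 0.683 ± 0.280 RPM, log2 1.30 ± 0.35, limma adjusted p 0.724). Of 12 tested exchange factors and co-chaperones of HSP70 4 were higher, beside the same 47.8%, at a median of -0.06. Bag5 stood at 0.55 ± 0.20 and Bag6 at -0.65 ± 0.30. The female means did not overlap for 1 of the 12 (Bag5), where 4.03% of all tested genes did not. Bag2 and Bag3 had no read in any oocyte. Of 7 tested mitochondrial proteases and chaperones 5 were higher, beside the same 47.8%, at a median of 0.18. Of these 7, 1 had under 2000 exonic bases. Lower were 48.2% of all tested genes of 2000 to 4000 bases and 41.6% of those from 4000. Among 4 tested heat shock factors and their regulators 2 were higher, beside the same 47.8%. Hsf1, the main heat shock factor, had a median of 210 RPM (52.8 RPM in the control RNA), and Hsf5, a germ cell factor, had 84.9 RPM against 0.318 RPM in the control RNA. Hsf5 stood at -0.45 ± 0.20.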

How the data were processed

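The authors deposited log2 values, 1 column per library. They are described as RPKM but hold no division by length: each is log2 RPM, and a gene without reads carries the value of 0.9 reads. Whole reads were recovered (with a tolerance of 0.02 reads, 100% of the 256342 values under 2000 reads came out whole). Trim Galore, FastQC and HISAT2 with GRCm39 and mm39 are named in the submitters' processing notes, without versions, while the table's coordinates were those of GRCm38. The sources used here name no counting tool, annotation or treatment of reads with several matches, so antisense, overlapping and near-identical genes may share reads. The water-only library and 1 transgenic oocyte of lane 1 (oocyte A) were not analysed here.

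Tests used log2(RPM + 1), on which fold changes of low genes come out too small. The 10987 genes that averaged 1 RPM or more entered the tests. Oocytes of a female were averaged, and 4 transgenic were compared with 4 wild-type females in limma 3.58.1 under R 4.3.3 (eBayes with a trend, two-sided), Benjamini-Hochberg adjusted over all tested genes, threshold 0.05. Differences between females were tested with limma's moderated F on the 21 oocytes, with female as the only factor. Levels per kb used the exonic union of GENCODE M21 basic transcripts. Sequence shared with other genes was found with BLAST 2.17.0 at 95% identity over at least 100 bases. The heat shock element was planned and the ER stress element was added later. The scripts were tested on simulated data.

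Females are paired by lane, as the labels put 1 female of each genotype in each lane. From lane 1 to lane 4, females sharing a lane had correlations across genes, after subtraction of the group means, of -0.04, 0.08, 0.34 and 0.32, and other pairs had a median of -0.05. The lane block, other scalings, pseudocounts and filters, voom, single oocytes and leaving out each female or oocyte were tried.

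Of the 89 genes, 43 are named by rule (15 HSP, 15 DNAJ, 8 CCT and 5 prefoldin): up to 6 per family by level, up to 4 by smallest p, those whose groups do not overlap, up to 3 by the test between females, the extremes against the control RNA, all CCT and prefoldin subunits, Hspa1a and Hspa1b. Others named were chosen after their values were seen. The genes, their families and the partner lists were chosen with earlier results of these data known.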

Additional observations from a re-analysis of the deposited data

Results flagged for a closer look

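In 5 of 68 groups of 4 females, 1 female stood apart from the other 3 by the Dixon criterion at 95%, and chance gives about 1 in 20. Hspe1 was 56.6 RPM in the wild-type animal of lane 4 against 42.9 to 44.8 RPM in the other wild-type females. Hspa4l was 15.3 RPM in the same animal against 22.5 to 22.9 RPM, and without it the log2 difference between the genotypes was 0.31. Dnajb4 was 1473 RPM in the transgenic female of lane 2 against 1178 to 1204 RPM. Dnaja1 was 191 RPM in the wild-type animal of lane 3 against 154 to 159 RPM. Cct4 was 32.3 RPM in the transgenic female of lane 1 against 18.5 to 19.9 RPM.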

How the results depend on the processing

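No chaperone passed the genotype test under any alternative (smallest adjusted p 0.0889, for Pfdn5 in the fit on single oocytes with a random effect of female and the lane block). That fit called 12 genes of the whole table. Leaving out 1 female or oocyte gave 0 to 1 genes (1 without the transgenic female of lane 1). The replicate block by lane called 0 genes and 0 chaperones (smallest adjusted p 0.447 and 0.455) and changed no other call, also with the length trend removed. Voom called 0 genes. Family medians kept their sign except CCT, which ran from -0.10 to 0.062 when 1 female or oocyte was left out. The HSP median was 0.034 with no filter on level. Between females, 12 to 1146 genes and 0 to 12 chaperones were called when 1 female was left out. Of 1326 values of 34 named genes under 39 alternatives, 1291 kept their direction and 35 in 13 genes did not. Dnaja2 turned to 0.0087 with median-of-ratios scaling and Cct4 to -0.016 with voom. With 1 female or oocyte left out, the log2 difference ran from -0.41 to 0.076 for Cct2, -0.29 to 0.062 for Cct3, -0.15 to 0.21 for Cct4, -0.27 to 0.028 for Cct5, -0.076 to 0.17 for Cct8, -0.10 to 0.036 for Tcp1, -0.14 to 0.051 for Dnaja2, -0.17 to 0.47 for Dnaja3, -0.0075 to 0.46 for Dnajb1, -0.15 to 0.030 for Dnajb4, -0.30 to 0.030 for Hsp90aa1, -0.17 to 0.022 for Hsp90ab1 and -0.043 to 0.27 for Hsp90b1. The cause was not tested. The median of all tested genes moved between -0.03 and 0.02. Depth limits what can be said of genes near 0.1 RPM in 1 oocyte, and 4 females per genotype limit the rest.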
